A study of Mus musculus with 10 samples.

Results

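The genes described here encode the machinery that makes proteins and builds ribosomes: translation initiation and elongation factors, aminoacyl-tRNA synthetases, nucleolar assembly factors, shared or specific subunits of RNA polymerases I and III, and the nucleolar proteins nucleophosmin (Npm1) and nucleolin (Ncl). Members were found by symbol: those that start with Eif1 to Eif6, Eef1 or Eef2, with Nop or Utp and a digit, with Polr1 or Polr3, symbols made of a single letter and ars or ars2, and Npm1 and Ncl. Of 6610 gene symbols in the deposited table, 51 were members, with 99 transcripts between them. Other genes of these families, such as Eif6, Nop2, Polr1a, Polr1b, Iars and Wars, have no entry there. The 51 are therefore only a part of each family, and nothing can be said of the absent genes. By role they were 19 initiation factors, 9 regulators of initiation or elongation factors, 6 elongation factors, 6 cytosolic and 2 mitochondrial synthetases, 2 Nop factors, 3 Utp factors, 1 subunit of RNA polymerase I (also part of polymerase III), 1 subunit specific to polymerase III, and the pair Npm1 and Ncl. Roles were assigned by symbol. All 51 passed the filter on low values (at least 1 TPM in at least 2 libraries), which 4427 genes passed.

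The 10 libraries, 2 in each of 5 groups, hold RNA of B lymphocytes from spleens of the inbred mouse strain C57BL/6. Cells of the group div12_48_d had divided in a first culture and divided again during a further 48 h in a low dose of anti-CD40 antibody (0.12 µg/ml), and cells of div12_48_u came from the same second culture, called Phase II, and had not divided again. In the first culture, Phase I, cells received a pulse of anti-IgM antibody, which engages the antigen receptor, with anti-CD40 antibody, which engages a co-stimulatory receptor, and were sorted at 48 h into divided cells (div12) and activated cells that had not divided (div0). Resting cells without activation form the group naive. The ages of the mice are not given in the labels, Phase I replicates are described as independent pools of 4 to 5 mice, and nothing is said of pooling in Phase II, so p-values measure only the spread between these libraries. Phase II RNA came from fewer cells than Phase I RNA, so the effects of cell input, length of culture and any batch cannot be told apart from phase. In bulk RNA a smaller share of a cell type and less of its RNA per cell cannot be told apart either.

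Translation begins when the cap-binding complex eIF4F, made of the cap-binding protein eIF4E, the scaffold eIF4G and the helicase eIF4A, brings an mRNA to the small ribosomal subunit, while eIF2 delivers the initiator tRNA. Kinases that sense stress phosphorylate eIF2 and so slow initiation, and the binding proteins of eIF4E block the assembly of eIF4F. A resting lymphocyte is small and makes little protein, and growth before division is known to require more ribosomes, which are assembled in the nucleolus.

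Promoter sequence of 43 of the 51 members was matched by symbol in RefSeq (GRCm38.p6, windows of 250 bases before to 50 bases after each transcript start). CACGTG, the E-box bound by MYC and related factors, which reads the same on either strand, was in the window of 11 of the 43 members (25.6%), of 399 of 3435 tested genes with a sequence (11.6%), and of 2187 of all 27025 symbols (8.09%). TGATGCAA, or TTGCATCA on the other strand, the core of the C/EBP-ATF response element bound by ATF4, was in the window of 3 members (6.98%), all of them cytosolic synthetases (Aars, Tars and Yars), against 1.05% of tested genes and 1.03% of all symbols. No E-box match overlapped a response element match in a member. The median GC content of the windows was 62.0% in members, 60.3% in tested genes and 52.8% in all symbols, which moves in the same order as the E-box share. Its part in that share was not tested, and a match describes letters in a window, not a bound site. The following stretches of 80 bases upstream of the start are printed 5′ to 3′ on the strand of the gene, with the motif in capitals. The Eif4a1 stretch spans bases 220 to 141 before the start, where its match lies, and the other stretches span bases 80 to 1. Eif4a1 and Eif4a2 are shown as paralogous helicases, and the Eif4a2 stretch has no match. Their stretches are thus not the same region. Among the 11 members with an E-box, Aars, Eef2, Eif4a1, Eif4e, Eif5a and Tars rose in div12 against naive below. Utp20 and Utp25 fell there, and Eef1aknmt, Eif1b and Eif4g1 were not called. Whether a match goes with the direction of change was not tested. Eif4g1 and Eef2 show the E-box in the scaffold of eIF4F and in the elongation factor that moves the ribosome, and Tars shows the response element core in a synthetase. Their positions are chr11:69672564-69672643 (minus strand) for Eif4a1, chr16:23107388-23107467 (plus) for Eif4a2, chr16:20672647-20672726 (plus) for Eif4g1, chr10:81176551-81176630 (plus) for Eef2 and chr15:11399659-11399738 (minus) for Tars.
Eif4a1: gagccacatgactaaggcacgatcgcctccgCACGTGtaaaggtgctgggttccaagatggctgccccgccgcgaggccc
Eif4a2: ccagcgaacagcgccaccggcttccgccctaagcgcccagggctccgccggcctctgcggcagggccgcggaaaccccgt
Eif4g1: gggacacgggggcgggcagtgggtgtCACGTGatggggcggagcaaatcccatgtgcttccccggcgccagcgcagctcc
Eef2: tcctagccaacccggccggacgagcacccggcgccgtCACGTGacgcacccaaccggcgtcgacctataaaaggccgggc
Tars: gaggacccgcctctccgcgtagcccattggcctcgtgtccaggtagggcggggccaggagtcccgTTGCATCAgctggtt

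Levels are given as TPM (a transcript abundance corrected for length, with a common sum over each library), added up by gene, and the number of reads behind them is unknown. All B cell markers listed (6 genes, Cd74 among them) were above 0 in every library, with sums of 35553 to 57758 TPM in the 8 cultured libraries and 65254 to 69190 TPM in naive libraries. Naive libraries also held RNA of other cells: 3 erythroid genes summed to 10.9 to 43.5 TPM in cultured libraries, against 2675 and 3189 TPM in naive libraries, and 10 myeloid genes to 46.6 to 210 TPM in cultured libraries, against 731 and 2238 TPM in naive libraries. Their part in the comparisons with naive below was not tested. The Phase II end of that range was nearly all Adgre1, at 139 and 204 TPM in div12_48_d and 108 and 103 TPM in div12_48_u, against 23.4 and 65.6 TPM in naive, while C1qa was listed at 0 in all 8 cultured libraries. In Phase II, sums of 4 T cell genes were 423 and 447 TPM in div12_48_d and 349 and 403 TPM in div12_48_u libraries. Nearly all of this was Lck, and Cd3e, Cd4 and Cd8a were at 0 to 1.26 TPM there, against 3.12 to 10.4 TPM in naive. Sums of 5 plasma cell genes were 971 and 1191 TPM in div12_48_d and 458 and 480 TPM in div12_48_u libraries. In naive libraries they were 2041 and 872 TPM, of which Irf4 made up 1682 and 308 TPM. Jchain averaged 421 TPM in div12_48_d and 27.8 TPM in div12_48_u. Irf4, Xbp1 and Prdm1 also had higher means in div12_48_d, while Sdc1 averaged 13.3 TPM there and 19.9 TPM in div12_48_u. The part of T cell or plasma cell RNA in the comparisons of the Phase II groups was not tested. Replicates of naive differed most, with 340 of the 4427 genes more than 2-fold apart, against 33 to 65 in the other groups. Among the 51 members, replicate 2 was the lower library for 36 in div12_48_d, 35 in div12_48_u, 37 in div12, 12 in div0 and 18 in naive. The same count was not made over all genes.

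Together the 51 genes made up 6.10% and 5.82% of all TPM in div12_48_d libraries, 5.11% and 5.18% in div12_48_u, 6.38% and 6.10% in div12, 5.30% and 5.50% in div0, and 4.29% and 4.29% in naive libraries. The share was thus highest in div12 and div12_48_d and lowest in naive cells, with no overlap between div12 or div12_48_d and the rest. Most of it was the elongation factor Eef1a1, and gene by gene the order was not the same: the highest group mean was in div12_48_d for 9 members, in div12_48_u for 3, in div12 for 26, in div0 for 1 and in naive for 12. Naive had the lowest mean for 23 members and div12_48_u for 13. The same counts were not made over all tested genes, so it is not known whether members differ from them in this.

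**Figure D1:**
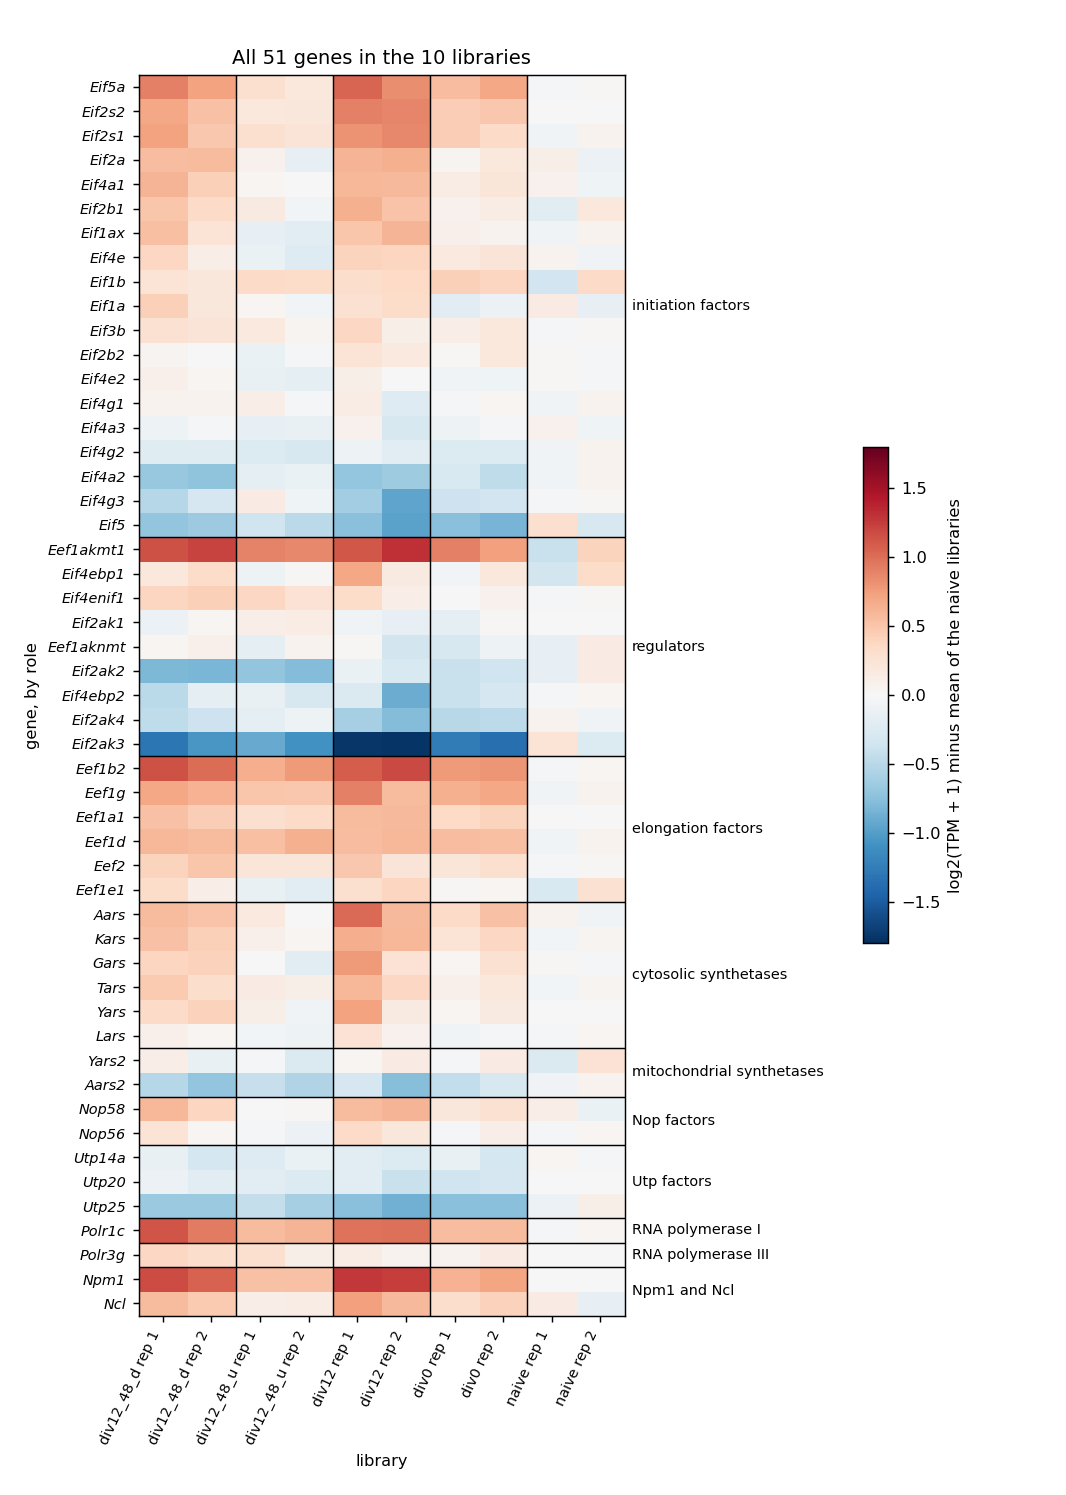
All 51 genes (rows, by role) in the 10 libraries (columns), coloured by log2(TPM + 1) minus the mean of the naive libraries, from blue (lower than naive) to red (higher). Red runs through most initiation factors, elongation factors and cytosolic synthetases and through Polr1c, Npm1 and Ncl, deepest in div12 and div12_48_d, while Eif2ak3, Eif5, Eif4a2, Eif4g3 and Utp25 are blue in both of those groups.

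Differences were tested with limma on log2(TPM + 1) over all 4427 genes, and the words rose and fell are kept for genes whose two-sided Benjamini-Hochberg adjusted p was under 0.05. Fold changes below are on that log2 scale, with the standard error after ±, and group means carry the SD of 2 libraries. In div12 against naive, where 66.9% of all tested genes were called, 24 members rose, 47.1% of the 51 against 19.4% of all tested genes, and 9 fell, 17.6% against 47.5% of all tested genes. The median change was 0.33 for members and -0.35 for all genes tested. In div0 against naive, where 54.9% of all genes were called, 14 members rose (15.4% of all genes did) and 9 fell (39.6% did), with medians of 0.10 for members and -0.24 for all genes. The count of 23 was 15 without div0 replicate 1 and 14 without div0 replicate 2. In div12_48_u against naive, where 42.5% were called, 8 rose (15.2% of all genes) and 5 fell (27.2%), with medians of 0.01 and -0.11, and the count of 13 was 8 without div12_48_u replicate 2. Because the median gene is lower than in naive on the TPM scale, the split depended on the scale: with each library rescaled by the median ratio, which brought the median of all genes to 0.00 in div12 and div0 against naive and to 0.04 in div12_48_u against naive, 38 members rose and 6 fell in div12, 29 rose and 3 fell in div0, and 18 rose and 3 fell in div12_48_u.

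Between cells that had and had not divided within the same phase, most members that were called rose. In div12 against div0, where 8.76% of all genes were called, 9 members rose (3.68% of all genes did) and 0 fell (5.08% did), and the median change was 0.19 for members against -0.07 for all genes. This count rested on single libraries, as did that of all genes: limma called 0 members without div0 replicate 1, without div0 replicate 2 or without div12 replicate 2 (12, 21 and 26 at an unadjusted p under 0.05), 1 without div12 replicate 1, and 16 without either naive replicate (14 higher and 2 lower), while the member median stayed between 0.09 and 0.23 over those settings. In div12_48_d against div12_48_u, where 25.6% were called, 13 rose (12.2% of all genes) and 2 fell (13.4%), with medians of 0.18 for members and -0.08 for all genes. Without div12_48_d replicate 1 the count was 3, and without div12_48_u replicate 1 or 2 it was 9 or 8. With the median-ratio scale, 16 members rose and 0 fell in div12 against div0, where 346 of all 4427 genes rose and 177 fell, and 20 rose and 2 fell in div12_48_d against div12_48_u, where 672 of all genes rose and 478 fell.

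Against the divided Phase I cells, more members were called in Phase II cells that had not divided again than in those that had. In div12_48_u against div12, where 41.3% of all genes were called, 22 members fell, 43.1% of the 51 against 13.6% of all genes, and 4 rose (27.7% of all genes did). The median change was -0.26 for members and 0.16 for all genes, and 8 of 51 members lay above the median of all genes. In div12_48_d against div12, where 15.9% were called, 1 member rose (11.9% of all genes did) and 2 fell (4.09% did), with medians of -0.07 and 0.08. Without div12_48_d replicate 2 limma called 0 members there (2 at an unadjusted p under 0.05). With the median-ratio scale, 4 members rose and 31 fell in div12_48_u against div12, where 786 of all 4427 genes rose and 976 fell, and 0 rose and 3 fell in div12_48_d against div12, where 429 of all genes rose and 447 fell.

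Eif4a1 encodes the main cytoplasmic helicase of eIF4F. It stood at 1567 and 1371 TPM in div12_48_d libraries, 1051 and 1016 in div12_48_u, 1551 and 1529 in div12, 1117 and 1186 in div0, and 1079 and 967 in naive. All libraries of div12 and div12_48_d lay above all 6 libraries of div12_48_u, div0 and naive. Its paralogue Eif4a2 stood at 699 and 679 TPM in div12_48_d, 989 and 1029.6 in div12_48_u, 688 and 718 in div12, 926 and 815 in div0, and 1071 and 1171 in naive. The order was the reverse, with div12 and div12_48_d below every library of the other groups.

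On testing, Eif4a1 rose in div12 against naive (0.59 ± 0.09, limma adjusted p = 5.01e-04), in div12 against div0 (0.42 ± 0.09, 0.0317) and in div12_48_d against div12_48_u (0.50 ± 0.09, 0.00589), and fell in div12_48_u against div12 (-0.58 ± 0.09, 0.00161). Eif4a2 fell in div12 against naive (-0.67 ± 0.08, limma adjusted p = 1.96e-04) and in div12_48_d against div12_48_u (-0.55 ± 0.08, 0.00347), and rose in div12_48_u against div12 (0.52 ± 0.08, 0.00194), although with the most abundant transcript alone that last change was 0.31 with an adjusted p of 0.121. In div12 against div0 its change of -0.30 ± 0.08 had a limma adjusted p of 0.0574. The ratio of Eif4a1 to Eif4a2, which does not depend on how libraries are scaled, was 2.24 and 2.02 in div12_48_d, 1.06 and 0.987 in div12_48_u, 2.25 and 2.13 in div12, 1.21 and 1.45 in div0, and 1.01 and 0.826 in naive. The pair are close paralogues, and how reads that fit both were assigned is not given in the sources used here. Without div12_48_d replicate 1 the rise of Eif4a1 in div12_48_d against div12_48_u had an adjusted p of 0.0506, and its rise in div12 against div0 was lost without any of the 4 Phase I cultured libraries or div12_48_u replicate 2 (adjusted p up to 0.242).

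Eif4g3 encodes a lesser known scaffold of eIF4F. It stood at 181 and 209 TPM in div12_48_d, 287 and 246 in div12_48_u, 167 and 134 in div12, 200.0 and 204 in div0, and 256 and 263 in naive. Values were lowest in div12 and overlapped between div12_48_u and naive. It fell in div12 against naive (-0.79 ± 0.13, limma adjusted p = 7.02e-04) and rose in div12_48_u against div12 (0.83 ± 0.13, 0.00156), the largest rise among members there. In div12_48_d against div12_48_u it fell by 0.45 (limma adjusted p = 0.0339), a call lost without div12_48_d replicate 1 (0.212) and without either library of div12_48_u or div0 (up to 0.195). Eif4g1, the main scaffold, averaged 415 ± 1.39 TPM in div12_48_d, 411 ± 26.7 in div12_48_u, 386 ± 68.9 in div12, 396 ± 12.9 in div0 and 397 ± 25.5 in naive, and was called in 0 of the 8 comparisons. With the median-ratio scale, however, it was higher in div12 (0.33, adjusted p = 0.0117) and in div0 (0.26, 0.0379) than in naive. The ratio of Eif4g1 to Eif4g3 was 2.30 and 1.98 in div12_48_d, a mean of 1.55 in div12_48_u, 2.60 and 2.52 in div12, 1.93 and 1.98 in div0, and 1.48 and 1.58 in naive. Eif4g2, a related protein that lacks the site for eIF4E, fell in div0 against naive on the TPM scale (-0.24 ± 0.07, limma adjusted p = 0.0217), but its change was 0.022 on the median-ratio scale.

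Eif4e, which encodes eIF4E, stood at 73.1 and 61.0 TPM in div12_48_d, 51.8 and 47.6 in div12_48_u, 74.7 and 74.1 in div12, 63.5 and 66.0 in div0, and 59.2 and 53.6 in naive. It fell in div12_48_u against div12 (-0.57 ± 0.11, limma adjusted p = 0.00466), where the libraries did not overlap. Its change in div12_48_d against div12_48_u was 0.42 ± 0.11 (limma adjusted p = 0.0277), a call lost without div12_48_d replicate 1 (0.193) and without either library of div12_48_u or div0 (up to 0.126). Eif4e2, which encodes a cap-binding protein that represses translation, averaged between 129 TPM in div12_48_u and 149.5 TPM in div12_48_d and was called in 0 comparisons, while its transcripts held different shares by group. Transcript NM_001039170 held 60.0% and 54.7% of the gene's TPM in div12_48_d, 36.7% and 40.7% in div12_48_u, 52.7% and 56.1% in div12, 45.4% and 40.7% in div0, and 38.2% and 30.8% in naive. NM_023314 held 23.3% and 27.6% in div12_48_d, 36.8% and 37.9% in div12_48_u, 25.1% and 22.1% in div12, 35.1% and 33.4% in div0, and 42.6% and 42.4% in naive. This gene was singled out after its transcripts were seen, no test was made, and shares of transcripts of a gene from 50 bp reads rest on the authors' assignment of reads between them.

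**Figure D2:**
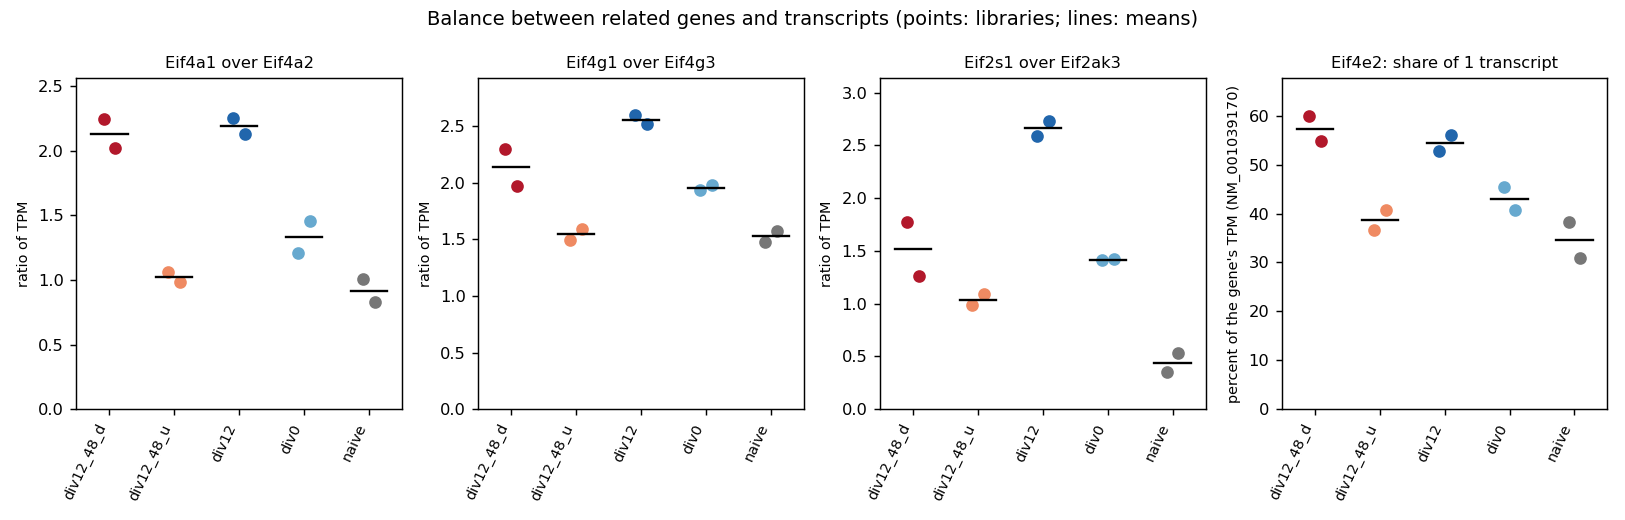
Ratios of TPM of Eif4a1 to Eif4a2, Eif4g1 to Eif4g3 and Eif2s1 to Eif2ak3, and the percent of Eif4e2 TPM held by transcript NM_001039170, by group; points are libraries and lines are means of 2. In the panels of Eif4a1 to Eif4a2 and of Eif4e2, all 4 libraries of div12 and div12_48_d lie above all 6 of div12_48_u, div0 and naive.

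Eif2s1 and Eif2s2 encode the alpha and beta subunits of eIF2. Eif2s2 stood at 268 and 237 TPM in div12_48_d, 189 and 190.2 in div12_48_u, 311 and 303 in div12, 223 and 230.4 in div0, and 166 and 163 in naive. No pair of groups overlapped, and div12 was the highest. It rose in div12 against naive (0.89 ± 0.08, limma adjusted p = 3.54e-05), in div0 against naive (0.46 ± 0.08, 0.00178) and in div12_48_d against div12_48_u (0.41 ± 0.08, 0.00824, but 0.0673 without div12_48_d replicate 1), and fell in div12_48_u against div12 (-0.69 ± 0.08, 4.49e-04). It was also a member that fell in div12_48_d against div12 (-0.28 ± 0.08, limma adjusted p = 0.0441), a call lost under 11 of 20 alternatives, among them each in which a div12 library or div12_48_d replicate 2 was left out (adjusted p up to 0.281). Eif2s1 rose in div12 against naive (0.84 ± 0.10, limma adjusted p = 1.53e-04) and fell in div12_48_u against div12 (-0.58 ± 0.10, 0.00258). Eif2a, an unrelated protein that can also deliver initiator tRNA, had 184 and 185 TPM in div12_48_d, 131 and 112 in div12_48_u, 190.2 and 194 in div12, 129 and 142 in div0, and 134 and 115 in naive. Its rise in div12_48_d against div12_48_u (0.61 ± 0.11, limma adjusted p = 0.00595) was the largest among members, and it kept its call under every alternative tried. Eif2b1, a subunit of the exchange factor that recharges eIF2, rose in div12 against naive (0.58 ± 0.14, limma adjusted p = 0.00622). It fell in div12_48_u against div12 (-0.52 ± 0.14, 0.0184), with adjusted p up to 0.105 without div12 replicate 1 or div12_48_u replicate 2.

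Other initiation factors moved in either direction. Eif1ax, which encodes the eIF1A protein of the scanning ribosome, fell in div12_48_u against div12 (-0.73 ± 0.12, limma adjusted p = 0.00194), with 43.9 and 42.1 TPM in div12_48_u against 69.2 and 75.2 TPM in div12. Eif1a, a near-identical paralogue, had 82.1 and 77.4 TPM in div12_48_u against 97.1 and 101 TPM in div12, a change of -0.31 ± 0.12 that missed the threshold (adjusted p = 0.0720), and reads may be shared between them. Eif5a, a hypusine-bearing factor that helps ribosomes past difficult peptide bonds, stood at 2517 and 2204 TPM in div12_48_d, 1631 and 1529.6 in div12_48_u, 2751 and 2387 in div12, 1959 and 2172 in div0, and 1316 and 1357 in naive. Naive was lowest and div12_48_u next, with neither overlapping another group. Eif5a rose in div12 against naive (0.94 ± 0.10, limma adjusted p = 9.30e-05) and in div12_48_d against div12_48_u (0.58 ± 0.10, 0.00589, but 0.0536 without div12_48_d replicate 1), and fell in div12_48_u against div12 (-0.70 ± 0.10, 0.00127). Eif5, the protein that makes eIF2 hydrolyse GTP, went the other way, with 345 and 361 TPM in div12_48_d, 442 and 402 in div12_48_u, 335 and 289 in div12, 337 and 317 in div0, and 687 and 465 in naive. It fell in div12 (-0.86 ± 0.16, limma adjusted p = 0.00184) and in div0 (-0.79 ± 0.16, 0.00448) against naive, whose libraries were far apart. Eif3b, the scaffold of eIF3, and Eif4a3, a helicase of the exon junction complex, were called in 0 of the 8 comparisons.

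Of the 19 initiation factors, 8 rose and 3 fell in div12 against naive (19.4% and 47.5% of all genes), 3 rose and 4 fell in div0 against naive (15.4% and 39.6%), and 0 rose and 1 fell in div12_48_u against naive (15.2% and 27.2%). By division, 5 rose and 0 fell in div12 against div0 (3.68% and 5.08% of all genes), and 7 rose and 2 fell in div12_48_d against div12_48_u (12.2% and 13.4%), the falls being Eif4a2 and Eif4g3. In div12_48_u against div12, 9 fell and 2 rose (13.6% and 27.7% of all genes), and the risers were again Eif4a2 and Eif4g3.

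Of the 9 regulators 1 rose and 3 fell in div12 against naive, where 19.4% of all genes rose and 47.5% fell. Eif2ak3 encodes PERK, the kinase activated by unfolded proteins in the endoplasmic reticulum. It stood at 84.0 and 100.1 TPM in div12_48_d, 111 and 97.4 in div12_48_u, 61.2 and 60.4 in div12, 86.5 and 80.4 in div0, and 247 and 176 in naive. Naive was highest and div12 lowest, with neither overlapping any other group, while both Phase II groups overlapped each other. It fell in div12 against naive (-1.76 ± 0.16, limma adjusted p = 4.19e-05), the largest change of any member in that comparison, and in div0 against naive (-1.31 ± 0.16, 3.45e-04). It also fell in div12_48_u, with a mean of 104 ± 9.32 TPM in div12_48_u against 211 ± 50.2 TPM in naive (limma adjusted p = 0.00159). In div12_48_u against div12 it rose by 0.76 ± 0.16 (limma adjusted p = 0.00627). Its change of 0.59 ± 0.16 in div12_48_d against div12 (adjusted p = 0.0421) lost its call under 15 of 20 alternatives, among them each in which a div12, div0 or Phase II library was left out (adjusted p up to 0.267). The ratio of Eif2s1, the kinases' substrate, to Eif2ak3 was 1.77 and 1.26 in div12_48_d, 0.990 and 1.09 in div12_48_u, 2.59 and 2.73 in div12, 1.41 and 1.42 in div0, and 0.348 and 0.534 in naive.

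Eif2ak2 encodes PKR, the kinase that senses double-stranded RNA. It stood at 48.2 and 47.4 TPM in div12_48_d, 51.2 and 48.7 in div12_48_u, 77.8 and 70.2 in div12, 64.1 and 65.6 in div0, and averaged 85.2 ± 12.4 TPM in naive. Both Phase II groups lay below every other library, and it fell against div12 in both, with changes of -0.62 ± 0.12 in div12_48_d (limma adjusted p = 0.00962) and -0.56 ± 0.12 in div12_48_u (0.00592). The call in div12_48_d was lost without div12 replicate 1 (0.0548) or div12_48_d replicate 2 (0.0707). Eif2ak4 encodes GCN2, the sensor of uncharged tRNA, and had 57.8 and 61.6 TPM in div12_48_d, 71.1 and 74.9 in div12_48_u, 52.4 and 46.2 in div12, 56.2 and 57.1 in div0, and 83.2 and 76.4 in naive. It fell in div12 against naive (-0.69 ± 0.10, limma adjusted p = 4.40e-04) and rose in div12_48_u against div12 (0.56 ± 0.10, 0.00303). Both calls rested on the sum of its transcripts: with the most abundant transcript alone the adjusted p was 0.0627 and 0.911. Eif2ak1, the heme-regulated kinase, averaged 141 ± 9.21 TPM in div12_48_d, 157 ± 1.07 in div12_48_u, 133 ± 5.11 in div12, 137 ± 12.2 in div0 and 144 ± 1.87 in naive and was called in 0 comparisons on the TPM scale, while on the median-ratio scale it was higher in div12 than in naive (0.27, adjusted p = 0.0242).

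Eif4ebp1, which encodes a binding protein that blocks eIF4E, averaged 82.5 ± 6.01 TPM in div12_48_d, 67.2 ± 3.83 in div12_48_u, 94.3 ± 24.3 in div12, 72.7 ± 8.77 in div0 and 70.7 ± 23.3 in naive, and was called in 0 comparisons, with replicates far apart in div12 and in naive. Eif4ebp2, its relative, fell in div12 against naive (-0.57 ± 0.19, limma adjusted p = 0.0275), a call lost without div12 replicate 2 or either naive replicate (adjusted p up to 0.303 over all alternatives). Eef1akmt1, a methyltransferase of eEF1A, rose in div12 against naive (1.21 ± 0.22, limma adjusted p = 0.00140), with 71.0 and 81.4 TPM in div12 against 24.2 and 42.8 TPM in naive. The median change of the 9 regulators in div12 against naive was -0.15 on the TPM scale and 0.21 on the median-ratio scale, so no direction of this group as a whole can be given.

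**Figure D3:**
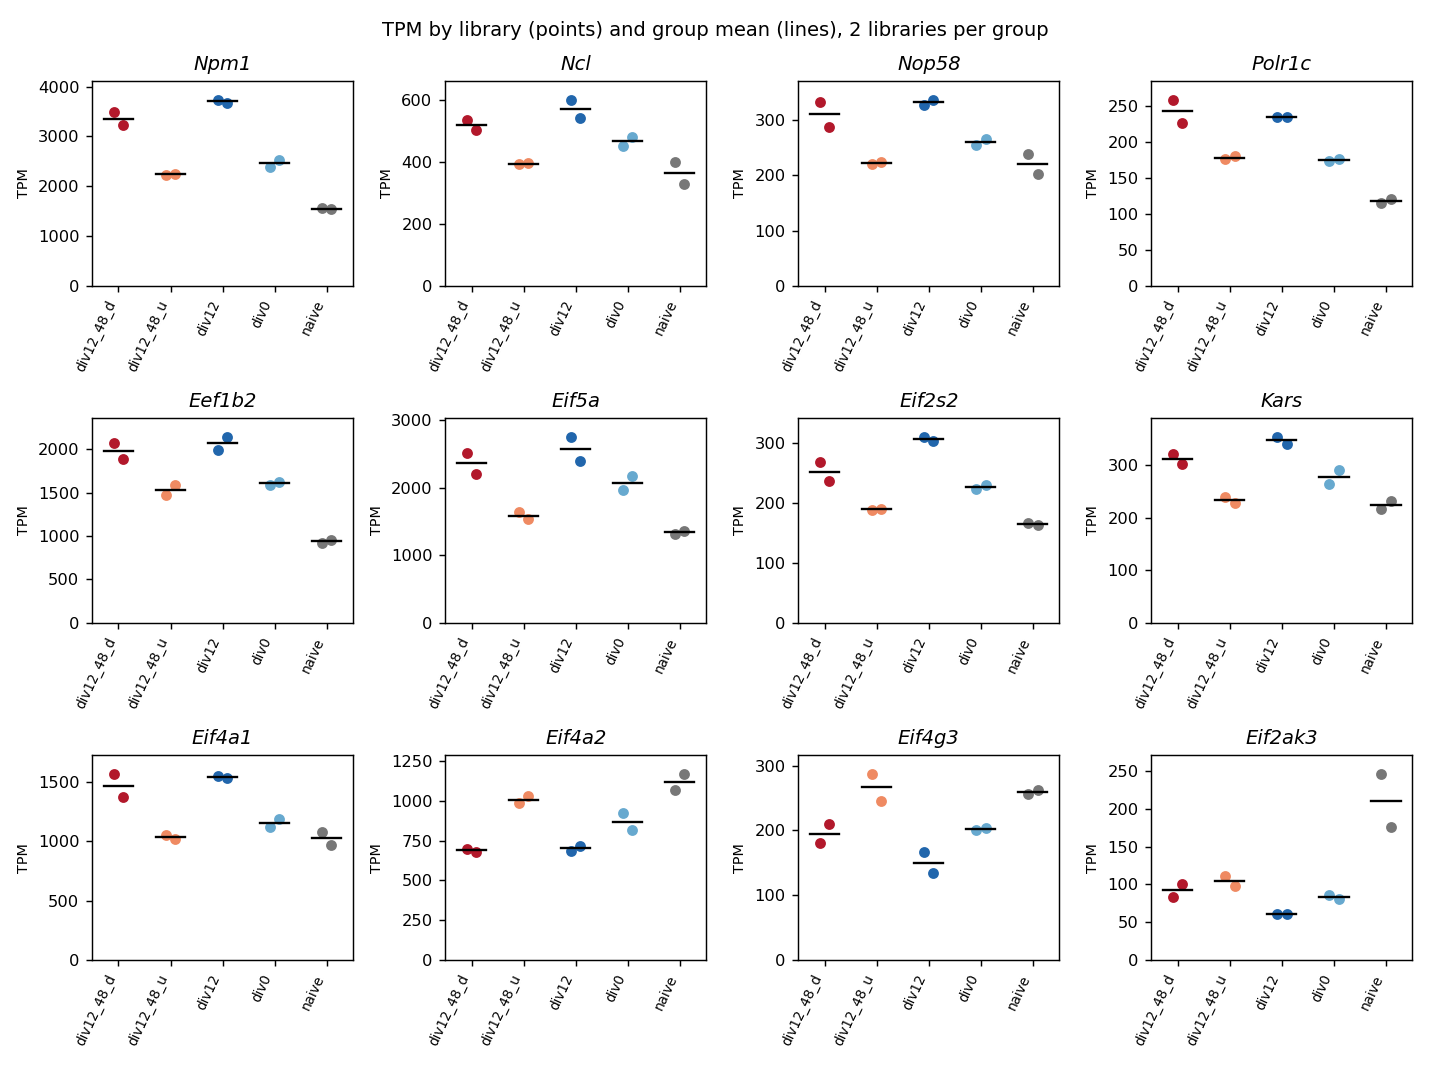
TPM by library (points) and group mean (lines) of 12 genes in the 5 groups. Npm1, Ncl, Nop58, Polr1c, Eef1b2, Eif5a, Eif2s2, Kars and Eif4a1 have higher means in div12_48_d than in div12_48_u and in div12 than in div0, and Eif4a2, Eif4g3 and Eif2ak3 have lower ones.

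Eef1a1 encodes eEF1A, which brings charged tRNA to the ribosome, and was the most abundant member in every library. It stood at 33188 and 31333 TPM in div12_48_d, 28124 and 29189 in div12_48_u, 34214 and 34409 in div12, 29298 and 30262 in div0, and 23102 and 22816 in naive. Naive was lowest by a wide margin and div12 highest. A rise was called in div12 against naive (0.58 ± 0.08, limma adjusted p = 3.56e-04). Its fall in div12_48_u against div12 (-0.26 ± 0.08, 0.0328) was lost when any library of either group or of div0 was left out (adjusted p up to 0.108). Eef1b2, Eef1d and Eef1g encode subunits of the nucleotide exchange complex of eEF1A. All of them rose in div12, div0 and div12_48_u against naive, and kept these calls under every alternative tried. Eef1b2 had 2077 and 1889.8 TPM in div12_48_d, 1474 and 1589.8 in div12_48_u, 1996 and 2146 in div12, 1593 and 1624 in div0, and 918 and 957 in naive. It rose most of the elongation factors in div12 against naive (1.14 ± 0.08, limma adjusted p = 1.09e-05) and fell in div12_48_u against div12 (-0.43 ± 0.08, 0.00335).

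Eef1d differed between activated and resting cells and not detectably by division. It averaged 482 ± 6.89 TPM in div12_48_d, 485 ± 24.1 in div12_48_u, 479 ± 11.2 in div12, 470.5 ± 5.01 in div0 and 322 ± 18.3 in naive. The change was -0.01 ± 0.07 in div12_48_d against div12_48_u and 0.03 ± 0.07 in div12 against div0 (limma adjusted p of 0.960 and 0.858). Eef2, which encodes the translocase, averaged 6490.1 ± 314 TPM in div12_48_d, 5521 ± 16.1 in div12_48_u, 6093 ± 734 in div12, 5648 ± 166 in div0 and 4736 ± 103 in naive, and rose in div12 against naive (0.36 ± 0.09, limma adjusted p = 0.00883; without div12 replicate 1, 0.0523). Eef1e1, a scaffold of the complex of synthetases in spite of its symbol, had 70.3 and 67.5 TPM in div12_48_u against 94.5 and 101 TPM in div12, a fall of 0.50 on the log2 scale (limma adjusted p = 0.0397, lost without any 1 of the div12_48_u, div12 or div0 libraries, up to 0.157). Of the 6 elongation factors, 5 rose in div12 (19.4% of all genes did), 5 in div0 (15.4%) and 4 in div12_48_u (15.2%) against naive. The call of Eef2 in div0 against naive was lost under 11 of 19 alternatives. In div12_48_u against div12, 3 fell (13.6%), Eef1e1 among them, and 1, Eef1b2, rose in each comparison by division. Its rise in div12_48_d against div12_48_u (0.37 ± 0.08, limma adjusted p = 0.0119) was lost without div12_48_d replicate 1 (0.0963) or div12_48_u replicate 1 (0.0753).

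Aminoacyl-tRNA synthetases charge each tRNA with its amino acid. Kars, which charges lysine tRNA in the cytosol and in mitochondria, stood at 322 and 302 TPM in div12_48_d, 239 and 228 in div12_48_u, 354 and 340.2 in div12, 265 and 289.7 in div0, and 216 and 232 in naive. Libraries of div12 and div12_48_d lay above every other library, and div12_48_u overlapped naive. Kars rose in div12 against naive (0.63 ± 0.08, limma adjusted p = 2.26e-04) and in div12_48_d against div12_48_u (0.41 ± 0.08, 0.00878, but 0.0733 without div12_48_d replicate 1 and 0.0536 without div12_48_u replicate 2), and fell in div12_48_u against div12 (-0.57 ± 0.08, 0.00122). Aars, the alanine enzyme, stood at 149 and 143 TPM in div12_48_d, 114 and 101 in div12_48_u, 204 and 151 in div12, 128 and 145 in div0, and 105 and 95.5 in naive. Aars rose in div12 against naive (0.80 ± 0.15, limma adjusted p = 0.00137) and fell in div12_48_u against div12 (-0.71 ± 0.15, 0.00565). Its replicates in div12 were well apart, and likewise those of Gars (241 and 169 TPM) and Yars (123 and 82.7 TPM).

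The rises of Gars, the glycine enzyme (0.51 ± 0.16, limma adjusted p = 0.0212), and Yars, the tyrosine enzyme (0.44 ± 0.17, 0.0442), in div12 against naive were lost without div12 replicate 1 (0.129 for Gars and 0.286 for Yars). Without naive replicate 2 that of Gars was lost too (0.0654), and that of Yars under 13 of 19 alternatives in all. Tars, the threonine enzyme, rose in div12 against naive (0.48 ± 0.10, 0.00353). Lars, the leucine enzyme, was called in 0 comparisons on the TPM scale, with changes between -0.25 and 0.22, while on the median-ratio scale it was higher in div0 than in naive (0.21, adjusted p = 0.0487). By count, 5 of the 6 cytosolic enzymes rose in div12 (19.4% of all genes did), 2 in div0 (15.4%) and 0 in div12_48_u (15.2%) against naive, and 4 fell in div12_48_u against div12 (13.6%). Of those 4 falls, Aars and Kars kept theirs under every alternative tried. The falls of Gars and Tars were lost without div12 replicate 1 and without div12_48_u replicate 2. In the comparisons by division 1 of 6, Kars, rose in each, and the other 5 had positive changes that missed the threshold, from 0.22 to 0.37 in div12 against div0 and from 0.14 to 0.50 in div12_48_d against div12_48_u. The 2 mitochondrial enzymes did not follow. Aars2 had 28.2 and 20.2 TPM in div12 against 33.5 and 36.7 TPM in naive (-0.53 ± 0.17, limma adjusted p = 0.0207, but 0.327 on the median-ratio scale). That call was lost without div12 replicate 2, without naive replicate 2 and with the most abundant transcript alone. The latter, NM_198608, had 22.2 and 12.8 TPM in div12 against 17.9 and 17.4 TPM in naive. Yars2 was called in 0 comparisons. Aars2 also fell in div12_48_u against naive (-0.48 ± 0.17, limma adjusted p = 0.0485), a call that 14 of 19 alternatives lost (up to 0.596).

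Npm1, an abundant nucleolar chaperone of ribosomal proteins (chr11:33152498-33164142 in GRCm38.p6), stood at 3485 and 3223 TPM in div12_48_d, 2228 and 2239 in div12_48_u, 3739 and 3676 in div12, 2383 and 2529.7 in div0, and 1555 and 1544 in naive. The groups lay in the order div12, div12_48_d, div0, div12_48_u and naive with no overlap. It rose in div12 against naive (1.26 ± 0.07, limma adjusted p = 5.10e-06), the largest rise among members there, in div0 against naive (0.66 ± 0.07, 1.75e-04) and in div12_48_u against naive (0.53 ± 0.07, 6.41e-04). It also rose in div12 against div0 (0.59 ± 0.07, limma adjusted p = 0.0109; up to 0.147 without a div0 library or div12 replicate 2) and in div12_48_d against div12_48_u (0.58 ± 0.07, 0.00133), and fell in div12_48_u against div12 (-0.73 ± 0.07, 2.48e-04). Ncl, which binds pre-rRNA, averaged 519.8 ± 22.3 TPM in div12_48_d, 395 ± 0.753 in div12_48_u, 573 ± 42.3 in div12, 467 ± 22.4 in div0 and 364 ± 50.5 in naive. It rose in div12 against naive (0.66 ± 0.10, limma adjusted p = 6.63e-04) and fell in div12_48_u against div12 (-0.53 ± 0.10, 0.00462).

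Nop56 and Nop58 encode the core proteins of the box C/D particles that guide methylation of rRNA. Nop58 stood at 334 and 288 TPM in div12_48_d, 220.0 and 224 in div12_48_u, 328 and 338 in div12, 254 and 266 in div0, and 239 and 202 in naive. Nop58 rose in div12 against naive (0.60 ± 0.10, limma adjusted p = 0.00102) and in div12_48_d against div12_48_u (0.48 ± 0.10, 0.0118; up to 0.0959 without div12_48_d replicate 1 or either div12_48_u library), and fell in div12_48_u against div12 (-0.58 ± 0.10, 0.00275). Nop56 changed less, by 0.27 ± 0.10 in div12 against naive (limma adjusted p = 0.0334, up to 0.164 when a library was left out or another model was used). Polr1c encodes a subunit shared by RNA polymerases I and III and had 258 and 227 TPM in div12_48_d, 176 and 180.2 in div12_48_u, 234 and 235 in div12, 173 and 176 in div0, and 115 and 121 in naive. Its levels formed 3 tiers, with div12 and div12_48_d highest, div12_48_u and div0 alike in the middle, and naive lowest. It rose in div12 (0.99 ± 0.08, limma adjusted p = 2.74e-05), div0 (0.56 ± 0.08, 8.67e-04) and div12_48_u (0.59 ± 0.08, 7.99e-04) against naive. Polr3g, the polymerase III subunit found in proliferating and stem cells, averaged 29.5 ± 0.792 TPM in div12_48_d, 26.5 ± 2.45 in div12_48_u, 24.7 ± 0.956 in div12, 24.7 ± 1.12 in div0 and 23.0 ± 0.0912 in naive, and was called in 0 comparisons.

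The 3 Utp factors, parts of the small-subunit processome that cuts the pre-rRNA, did not rise in any comparison. Utp25 had 40.5 and 40.4 TPM in div12_48_d, 48.2 and 42.5 in div12_48_u, 38.1 and 35.2 in div12, 38.3 and 38.0 in div0, and 60.4 and 70.0 in naive. It fell in div12 (-0.81 ± 0.11, limma adjusted p = 3.44e-04) and in div0 (-0.75 ± 0.11, 9.29e-04) against naive. Utp20 was lower in div12 than in naive (-0.29 ± 0.10, limma adjusted p = 0.0359), but that call was lost without either naive library (up to 0.0842) or div12 replicate 2 (0.208), and the change was 0.083 on the median-ratio scale. Utp14a was called in 0 comparisons.

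The changes with division could be set side by side in the 2 phases, since these comparisons share no library. Their calls are not independent, however. Both came from the same fit, which gave each gene a common spread in the 2 comparisons. Of the 51 members, 46 (90.2%) changed in the same direction in div12_48_d against div12_48_u and in div12 against div0, 35 upward and 11 downward, against 76.2% of the 4427 genes. Pearson's r across genes was 0.91 in members (Spearman 0.90) and 0.61 in all genes (Spearman 0.66). Genes are not independent replicates and no test was made. The lowest value of a member in any library was 20.2 TPM, while the filter for all genes was 1 TPM in 2 libraries. The part of expression level in these figures was not tested. All 9 members called in Phase I were called in Phase II, 60% of the 15 called there, while 313 genes of all tested were called in both, 80.7% of the 388 of Phase I and 27.6% of the 1134 of Phase II. The 9 were Npm1, Polr1c, Eef1b2, Kars, Eif1ax, Eif2a, Eif2s1, Eif2s2 and Eif4a1. The difference of the changes, Phase II minus Phase I, was called in 0 of 51 members (0 at an unadjusted p under 0.05) and in 0% of all genes (438 at an unadjusted p under 0.05) by limma; with the median-ratio scale 22 of all genes and 0 members were called. The largest was that of Eif2ak3, 0.27 ± 0.23 (adjusted p = 0.822), and the smallest unadjusted p among members was 0.0716, so with a median standard error of 0.15 a difference between phases was not detectable in any member.

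**Figure D4:**
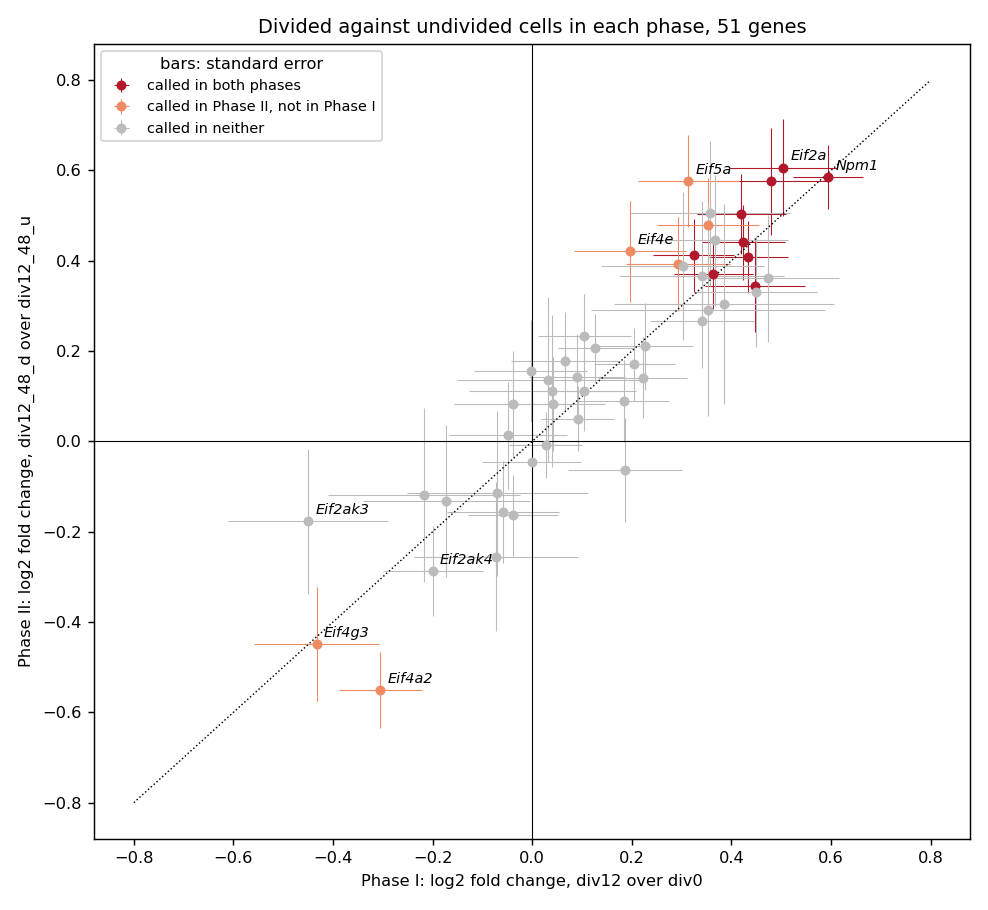
Log2 fold change of the 51 genes in cells that divided within a phase over those that did not, with standard errors. Phase II (div12_48_d over div12_48_u) is vertical and Phase I (div12 over div0) is horizontal. The dotted line marks equal change. The 9 genes called in both phases lie in the upper right, and Eif4a2 and Eif4g3, called in Phase II, lie in the lower left.

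**Figure D5:**
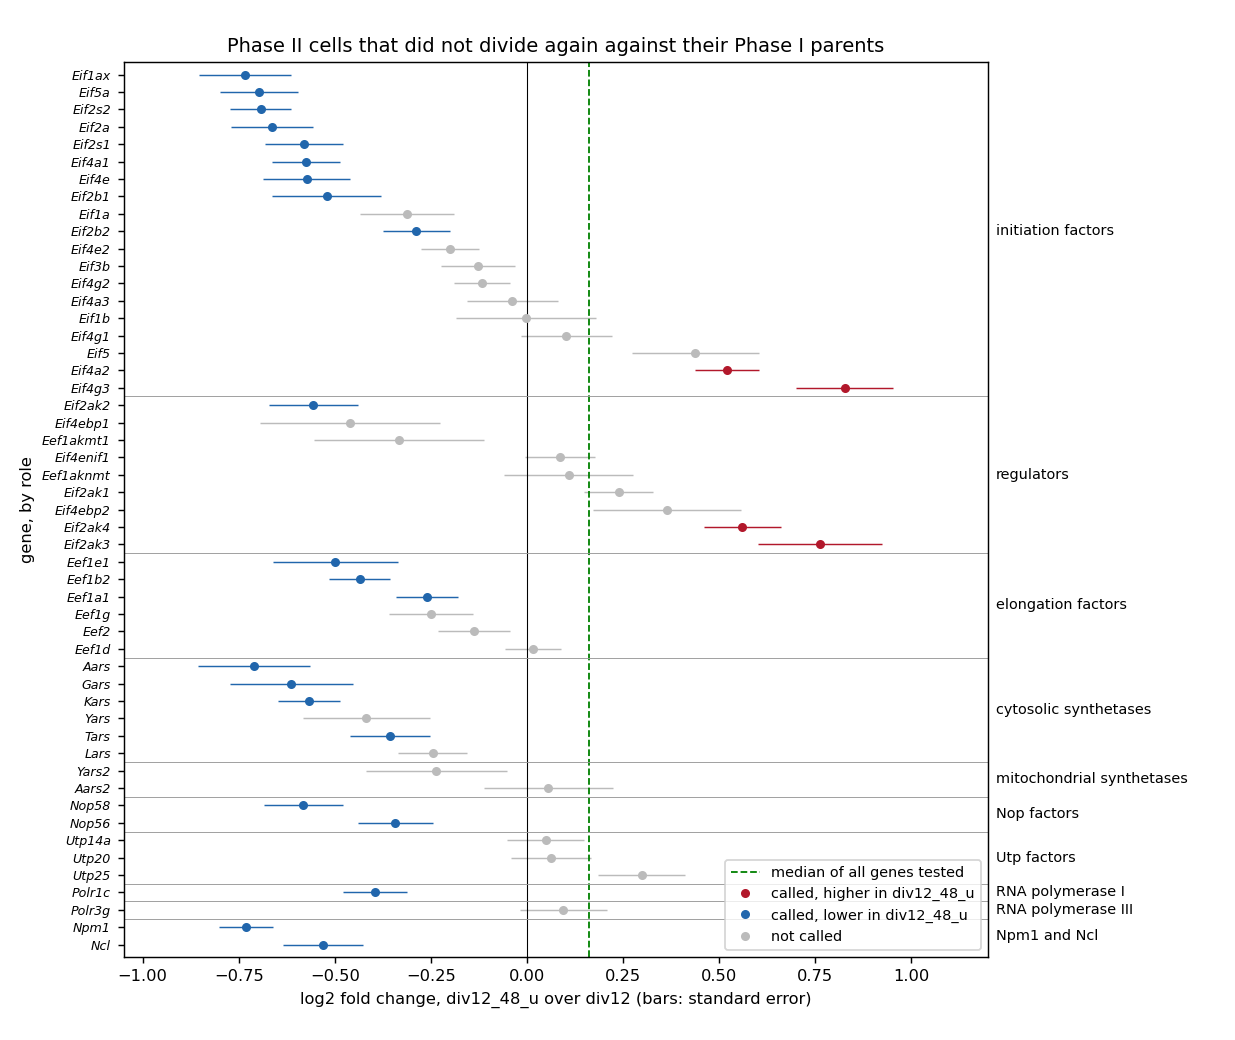
Log2 fold change of div12_48_u over div12 of the 51 genes by role, with standard errors; red and blue points were called higher and lower by limma, and the dashed line marks the median of all genes tested, 0.16. The 22 called lower include every member of the Nop, Npm1 and Ncl groups, Polr1c and 4 of 6 cytosolic synthetases, and the 4 called higher are Eif4g3, Eif2ak3, Eif2ak4 and Eif4a2.

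Of the genes that regulate growth and the response to amino acid shortage, 17 of 27 listed had an entry in the deposited data, and these were tested. In div12_48_u against div12, 9 rose and 0 fell (27.7% and 13.6% of all genes), with a median of 0.44 where that of all genes was 0.16. They include Tsc1, a brake on mTORC1 (0.70 ± 0.12, limma adjusted p = 0.00243), Ddit3, a transcription factor induced by stress (0.77 ± 0.27, 0.0498), and Ppp1r15a, which directs dephosphorylation of eIF2 (1.75 ± 0.36, 0.00596). Genes that promote growth also had higher means in div12_48_u than in div12: Mtor (61.2 against 43.1 TPM), Rptor (26.0 against 17.6) and Rheb (129 against 105). That of Depdc5 was lower (54.4 against 62.4). The list thus shows no single direction of growth control. Its calls were not recomputed under the alternatives below. In div12 against naive, 14 of the 17 fell and 0 rose (47.5% and 19.4% of all genes). Myc, a transcription factor that drives ribosome synthesis, had 189 and 180.2 TPM in div12_48_d, 212 and 173 in div12_48_u, 174 and 125 in div12, 177 and 202 in div0, and 1028 and 429 in naive, so the only libraries that stand apart are those of resting cells, which differ from each other by more than 2-fold. Atf4, which binds the response element above, had 554 and 591 TPM in div12_48_d, 621 and 636 in div12_48_u, 615 and 512 in div12, 535 and 536 in div0, and 1011 and 1001 in naive. Naive had the lowest group mean for 23 of the 51 members, among them Aars, Tars and Yars, whose windows hold the element. Atf4 RNA was highest in naive, and a link between Atf4 RNA and these genes was not tested.

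Of 25 other translation factors 10 had an entry in the deposited data, and these were tested. In div12 against naive 4 rose and 0 fell (19.4% and 47.5% of all genes), the largest change being that of Eprs, the enzyme for glutamate and proline tRNA (0.63 ± 0.09, limma adjusted p = 2.96e-04). Pdcd4, which encodes an inhibitor of the eIF4A helicase, stood at 422 and 446 TPM in div12_48_d, 671 and 587 in div12_48_u, 477 and 478 in div12, 527 and 478 in div0, and 404 and 394 in naive. It was highest in div12_48_u, falling in div12_48_d against div12_48_u (-0.53 ± 0.09, limma adjusted p = 0.00441) and rising in div12_48_u against div12 (0.39 ± 0.09, 0.00750). Of 50 ribosome biogenesis genes listed, only 7 had an entry in the deposited data, so most of the list could not be examined. The 7 were tested and moved little. The polymerase I initiation factor Rrn3 fell in div12 against naive (-0.41 ± 0.10, limma adjusted p = 0.00693). The nucleolar chaperone Nolc1 fell in div12_48_u against div12 (-0.38 ± 0.10, limma adjusted p = 0.0148).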

How the data were processed

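Total RNA depleted of ribosomal RNA, 100 ng a library, was read as 50 bp single ends, per the labels' protocols. TPM by transcript is the unit of the 1 table the authors deposited. The submitters' processing notes name the build mm10 and the tools HISAT2, Salmon, featureCounts, HTSeq and DESeq2. The role, version and strand setting of each is not given in the sources used here. Since TPM holds no read number, depth is unknown, and neither counting intervals nor count tests are given. Genes with pseudogenes or near-identical copies (Npm1, Eef1a1, Eif1a with Eif1ax) may share reads.

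TPM of 13065 transcripts with a symbol were summed into 6610 genes. limma 3.58.1 (R 4.3.3) was fitted to log2(TPM + 1) of the 4427 genes that reached 1 TPM in 2 or more of 10 libraries. The model had a mean for each group, and the prior variance followed mean expression; two-sided p-values were adjusted over those genes by Benjamini-Hochberg, with a threshold of 0.05. All 8 comparisons shared the spread of all groups (5 residual degrees of freedom). Members and lists were chosen with earlier results of these data known. The rule for naming was, for each role and comparison, up to 2 called members with the largest rise and up to 2 with the largest fall, any called member against its role's majority, and a set named whether called or not (Npm1, Ncl, Eif4a1, Eif4e, Eif4g1, both Eif4ebp genes, Eif2s1, Eif2ak3, Eif5a, Eef1a1, Eef2, both Nop genes, Utp20, Polr3g). Further members, such as Eif4e2, Eif1a, Eif2b1, Eif2ak1, Eif3b, Eif4a3, Lars, Yars2 and Utp14a, were named after their values were seen. Tables were made with pandas 2.3.3 and numpy 2.4.6 in Python 3.11.15, and plots with matplotlib 3.10.9.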

Additional observations from a re-analysis of the deposited data

How the results depend on the processing

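Each of 122 called values was recomputed under pseudocounts of 0.1 and 5, no filter, a filter of 5 TPM, median-ratio scaling, the replicate number as a block, the compared groups alone, no trend, the most abundant transcript, and with each library omitted. Omitting the naive group was an alternative chosen after seeing the data. Pseudocounts and the stricter filter lost 0 or 1 of the 122. Calls kept in every setting were 24 of 33 in div12 against naive, 17 of 26 in div12_48_u against div12, 10 of 23 in div0 against naive, 7 of 13 in div12_48_u against naive, 3 of 15 in div12_48_d against div12_48_u (Npm1, Eif2a and Eif4a2), 0 of 9 in div12 against div0 and 0 of 3 in div12_48_d against div12.

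Leaving out 1 library gave 14 to 25 members called in div0 against naive, 29 to 33 in div12 against naive, 19 to 31 in div12_48_u against div12, 8 to 14 in div12_48_u against naive, 0 to 16 in div12 against div0, 3 to 21 in div12_48_d against div12_48_u, 0 to 3 in div12_48_d against div12 and 0 in the difference. In div12 against div0 the count was 3 with no filter, 16 with median-ratio scaling, 2 with no trend and 16 without the naive group. In div12_48_u against naive it was 21 with median-ratio scaling and 7 with the compared groups alone. In div12_48_d against div12 it was 1 with the compared groups alone, no trend or the most abundant transcript. With median-ratio scaling the sign turned, relative to naive, for Eif4g1 (0.26), Eif4g2 (0.022) and Lars (0.21) in div0, and for Eif2ak1 (0.27), Eif4g1 (0.33), Eif4g2 (0.23) and Utp20 (0.083) in div12. The causes were not tested beyond what each alternative changes.

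Whether replicate numbers pair the libraries is not given in the sources used here. Correlations of replicate differences between groups ran from -0.24 to 0.20, the highest between div12_48_u and div12_48_d. With 2 libraries a group, such correlations cannot decide it. With the replicate block, 5 members were called in div12 against div0 and 1 in div12_48_d against div12, and 111 of the 122 calls remained. With 2 libraries a group and no read counts, small changes of low genes cannot be resolved.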
